A study of Caenorhabditis elegans with 6 samples.

Results

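The gene ech-9 (F01G10.3, chromosome IV), an enoyl-CoA hydratase family gene, and 9 further genes of peroxisomal and short-chain fatty acid oxidation were followed in whole Caenorhabditis elegans of mixed stages. They were identified by gene symbol, 10 genes of the 17118 that carry a single symbol on the array. The 10 genes have 12 probe sets, since dhs-28 and acdh-2 have 2 each. The tdp-1(ok803) group was 3 arrays of outcrossed worms whose allele of tdp-1 is labelled as loss of function (the gene is the worm counterpart of the one for TDP-43, an RNA-binding protein), and the other group was 3 arrays of wild-type N2 worms. Each array was hybridised with total RNA from separately prepared worms, called biological replicates by the submitters. The worms were grown under standard conditions and their ages were mixed, so each value is an average over all tissues and stages. In such whole-animal RNA, fewer cells of a type and less RNA per cell cannot be told apart.

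Beta-oxidation shortens acyl chains through repeated rounds of dehydrogenation, hydration, a second dehydrogenation and thiolytic cleavage. In C. elegans the peroxisomal cycle, run by acyl-CoA oxidase, the hydratase MAOC-1, the dehydrogenase DHS-28 and the thiolase DAF-22, is best known for trimming the side chains of ascarosides, the pheromones that control dauer entry. Short-chain acyl-CoA dehydrogenase ACDH-1 and the hydratase ECH-6 act in the propionate shunt, a mitochondrial route that worms use when vitamin B12 is scarce.

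The gene ech-9 was chosen by its difference between these same arrays, so its values are a description, and the 9 others were chosen by pathway with results of these arrays known. On the log2 scale its signal was 6.44, 6.57 and 7.37 in tdp-1(ok803) worms, against 4.01, 4.30 and 4.74 in wild-type worms. All 3 mutant values lay above all 3 wild-type values, with a gap wider than the spread within either genotype. The means were 6.80 ± 0.51 in the mutant and 4.35 ± 0.37 in wild type (SD, n = 3 each), a difference of 2.44 with a 95% interval of 1.80 to 3.09, or 5.44-fold. Of 22548 probe sets tested, 3 had a larger positive difference.

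The value by which ech-9 was chosen is its limma adjusted p of 0.0438 over all probe sets, under a threshold of 0.05. It was the last of the 13 probe sets that passed, which are 0.0577% of those tested, 0.031% being higher and 0.0266% lower in the mutant. Leaving aside 2 sets of 3 arrays, each with 1 genotype on a single array, the call was lost in 8 of 14 alternatives, among them those that left out mutant replicate 1 (2.62), 2 (2.56) or 3 (2.15) or the first wild-type array (2.27). Just inside the threshold with it was lpr-3 (limma adjusted p = 0.0289), and just outside it were F52E1.14 and T16H12.2 (limma adjusted p = 0.0603 for both). The wild-type values of ech-9 lay below the array medians of 5.41 to 5.52 and the mutant values above them. The scanner background was not used here, and with it unknown the wild-type level is only as sure as the deposited value. As a check of the labels, both probe sets of tdp-1 were lower in the mutant, with differences of -3.97 and -3.99.

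**Figure D1:**
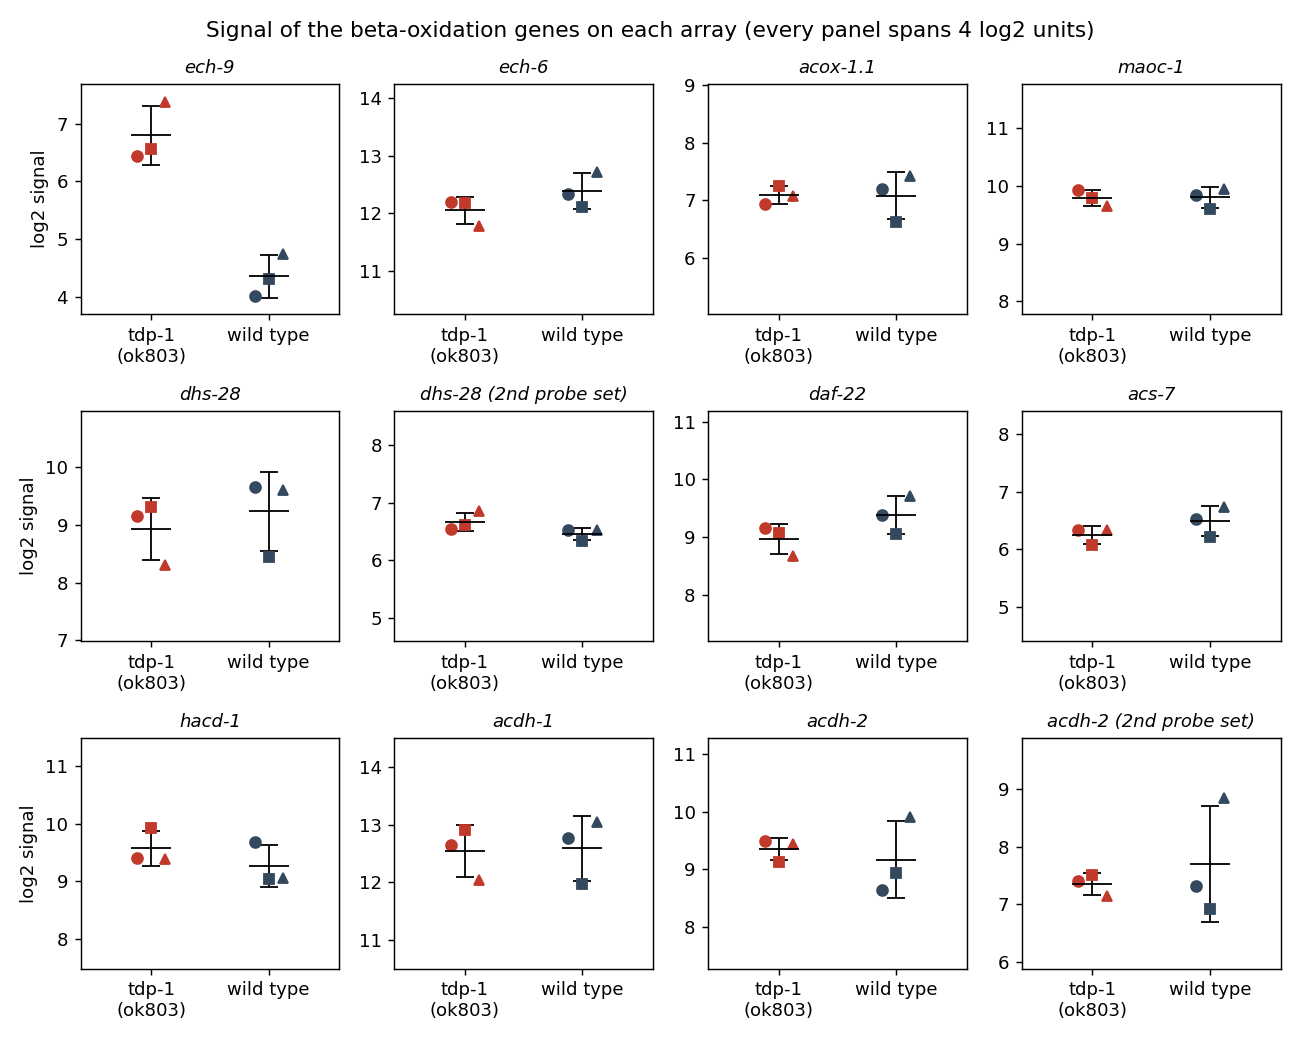
Log2 signal of each of the 12 probe sets on every array, tdp-1(ok803) to the left of wild type. Circles, squares and triangles are replicates 1, 2 and 3, which were not treated as paired, and the lines are the mean and SD of 3 arrays. The ech-9 values of the 2 genotypes are far apart, while those of most other genes overlap.

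The genes of the peroxisomal cycle showed no difference of this kind. The acyl-CoA oxidase gene acox-1.1 (F08A8.1, chromosome I), which performs the first step, gave 6.94, 7.25 and 7.07 in mutant worms and 7.20, 6.62 and 7.42 in wild-type worms. Its mutant values lay within the wild-type range, and the difference was 0.01 with a 95% interval of -0.48 to 0.49. The hydratase gene maoc-1 (E04F6.3, chromosome II), for the second step, gave 9.93, 9.79 and 9.66 in mutant worms and 9.85, 9.61 and 9.95 in wild type. This was the narrowest spread of any of the 12 probe sets, 0.34 over the 6 arrays, and its difference was -0.01 with an interval of -0.33 to 0.31.

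The third step is carried out by the product of dhs-28 (M03A8.1, chromosome X), a hydroxyacyl-CoA dehydrogenase. Its brighter probe set gave 9.16, 9.31 and 8.31 in mutant worms and 9.65, 8.45 and 9.61 in wild-type worms. One array of each genotype was low, mutant replicate 3 and wild-type replicate 2, and the difference of -0.31 had an interval of -1.18 to 0.55. The dimmer probe set of dhs-28 read 6.55, 6.61 and 6.85 in the mutant and 6.53, 6.34 and 6.53 in wild type. There all mutant values lay above all wild-type values, by a mean of 0.21 (interval -0.10 to 0.51), so the 2 probe sets of this gene pointed in opposite directions. The dimmer probe set carries the Affymetrix suffix for probes that may also match other sequences, so it is the less sure measure of dhs-28. It was the only 1 of the 11 probe sets besides that of ech-9 in which the genotypes did not overlap, where 11.6% of all probe sets tested did not, 6.8% with the mutant above and 4.84% with it below.

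The thiolase gene daf-22 (Y57A10C.6, chromosome II), which closes the cycle, gave 9.16, 9.07 and 8.68 in mutant worms and 9.38, 9.06 and 9.71 in wild-type worms. The genotypes overlapped only through wild-type replicate 2, and the difference was -0.41 with an interval of -0.88 to 0.05, the largest of the 11 in size. The acyl-CoA synthetase gene acs-7 (C01G6.7, chromosome II), whose product activates ascaroside side chains, gave 6.34, 6.07 and 6.33 in mutant worms and 6.53, 6.21 and 6.74 in wild-type worms. Its values overlapped as well, with a difference of -0.25 (interval -0.62 to 0.13).

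Among the short-chain genes, acdh-1 (C55B7.4, chromosome I), a dehydrogenase gene known in worms as a reporter of dietary vitamin B12, gave 12.65, 12.91 and 12.04 in mutant worms and 12.77, 11.96 and 13.04 in wild-type worms. The same 2 arrays that were low for dhs-28 were low here, and the difference was -0.06 with an interval of -0.79 to 0.67. The hydratase gene ech-6 (T05G5.6, chromosome III) gave 12.19, 12.19 and 11.77 in mutant worms and 12.33, 12.10 and 12.72 in wild type. Its difference of -0.34 had an interval of -0.78 to 0.11, and the sign is opposite to that of ech-9, of the same enzyme family.

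The second acyl-CoA dehydrogenase gene, acdh-2 (C17C3.12, chromosome II), varied most within wild type. Its brighter probe set gave 9.49, 9.13 and 9.45 in mutant worms and 8.64, 8.95 and 9.92 in wild-type worms, a difference of 0.19 (interval -0.51 to 0.89). The dimmer probe set gave 7.40, 7.51 and 7.14 in mutant worms and 7.33, 6.93 and 8.85 in wild type, a difference of -0.35 (interval -1.36 to 0.67). Wild-type replicate 3 was the highest array for both, and the wild-type SD of the dimmer one, 1.01, was the largest among the 12 probe sets. The hydroxyacyl-CoA dehydrogenase family gene hacd-1 (R09B5.6, chromosome V) gave 9.40, 9.93 and 9.38 in the mutant and 9.68, 9.04 and 9.05 in wild type. Its values overlapped through wild-type replicate 1, with a difference of 0.31 (interval -0.20 to 0.83).

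Over the 11 probe sets other than that of ech-9, 4 differences were positive and 7 negative, and the median was -0.06, against 0.0021 over all probe sets tested. None of the 11 passed an adjusted p of 0.05 (limma adjusted p = 0.765 to 0.999), and 0 had an unadjusted limma p under 0.05, where 6.97% of all probe sets did, 3.58% higher and 3.38% lower in the mutant. An alternative fit with array weights, which called 6291 probe sets or 27.9% of all, called the brighter acdh-2 probe set (0.72), while the dimmer one stood at -0.013 there. The standard errors ran from 0.13 to 0.44, so the widest intervals still hold differences of over 1 log2 unit. Missing the threshold therefore does not show that these genes were equal in both genotypes.

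**Figure D2:**
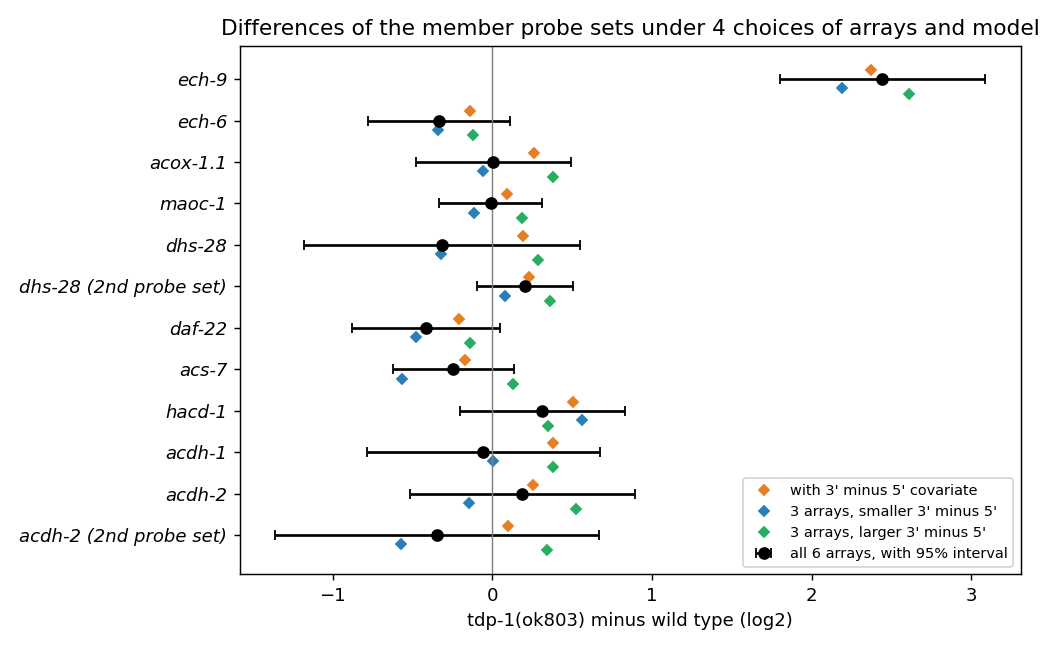
Difference, tdp-1(ok803) minus wild type on the log2 scale, for each of the 12 probe sets. Black points and bars are the estimate and 95% interval from all 6 arrays, and the coloured diamonds give the estimate with the 3' minus 5' covariate and within each set of 3 arrays. The interval of ech-9 alone lies clear of 0, and its 4 estimates run from 2.19 to 2.61.

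The arrays also differed in how much brighter the actin and Gapdh control probe sets at the 3' end were than those at the 5' end, a gap that widens when RNA is degraded or labelling stops short. It was 3.09 to 4.31 in the mutant and 2.52 to 4.12 in wild type (two-sided exact permutation p = 0.3, where 0.1 is the smallest that 3 against 3 arrays can give). The gap was small, 2.52 to 3.09, on mutant replicate 2 and wild-type replicates 1 and 3, and large, 4.01 to 4.31, on the other 3 arrays. At fixed genotype the slope of signal on this gap was negative for all 11 probe sets other than that of ech-9, whereas it was negative for 38.1% of all probe sets tested. Negative slopes were not particular to these genes. Their median was -0.28, against -0.60 for muscle, -0.41 for hypodermal and -0.29 for intestinal markers and -0.26 for vitamin B12 genes. Of the lists below, only the regulators of fatty acid oxidation (0.18) and other acyl-CoA dehydrogenases (0.03) had a positive median. The slope was -0.73 ± 0.14 log2 units per log2 unit (SE) for the brighter dhs-28 probe set, -0.63 ± 0.11 for acdh-1, -0.37 ± 0.09 for acox-1.1 and -0.03 ± 0.10 for the dimmer dhs-28 probe set. That of ech-9 was 0.10 ± 0.21. All of these slopes come from the same 6 arrays, so they are not independent of each other, and they were not tested as a group.

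With the gap as a covariate, 8 of the 11 differences were positive and 3 negative. The brighter dhs-28 probe set then stood at 0.19, acdh-1 at 0.38, acox-1.1 at 0.26 and the dimmer acdh-2 probe set at 0.10. Only ech-6 (-0.14), daf-22 (-0.21) and acs-7 (-0.17) remained negative. The gap was larger on average in the mutant, so the covariate raised the difference of any probe set with a negative slope. The share of all probe sets that were positive with the covariate is not given, here or for the lists below. Within the 3 arrays with the small gap, 3 of the 11 differences were positive, and within the 3 arrays with the large gap, 9 of the 11. The first count rests on 1 mutant array and the second on 1 wild-type array, each shared by all 11 probe sets. The share of all probe sets is not given for these sets either. The direction of most of these genes turned with the arrays and the model compared. The difference of ech-9 was 2.37 with the covariate, 2.19 within the arrays of small gap and 2.61 within those of large gap.

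**Figure D3:**
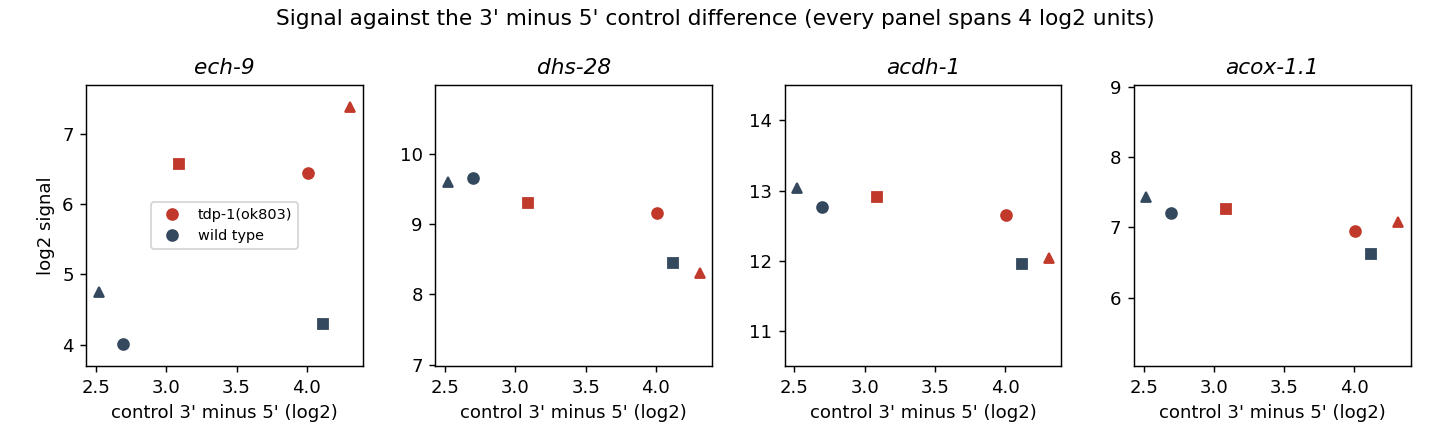
Log2 signal of ech-9, the brighter dhs-28 probe set, acdh-1 and acox-1.1 against the 3' minus 5' control difference of the array, in log2 units. Red is tdp-1(ok803) and dark blue wild type, and circles, squares and triangles are replicates 1, 2 and 3. For ech-9 the genotypes are apart on both sides of the plot, while dhs-28 and acdh-1 are lowest on the 2 arrays with the largest gap.

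The 5 nearest protein-coding genes on each side of ech-9, by the order of the WBcel235 gene table, were measured on the same arrays. The next gene on one side is ech-8 (F01G10.2), another enoyl-CoA hydratase family gene. It gave 6.02, 5.75 and 6.01 in mutant worms and 5.45, 5.65 and 5.78 in wild-type worms. Its values overlapped through mutant replicate 2, and the difference was 0.30 ± 0.14 (SE), which did not pass (limma adjusted p = 0.743). Affymetrix marks the ech-8 probe set with the suffix for probes that may match more than 1 transcript, and the ech-9 probe set with the suffix for a unique match. Beyond ech-8 lies lipl-7, a lipase-like gene, with 0.23 ± 0.13 (limma adjusted p = 0.82), then tkt-1, which encodes transketolase, with -0.10 ± 0.11 (limma adjusted p = 0.909).

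On the other side, F01G10.4, F01G10.5 and F01G10.6 differed by -0.06, -0.28 and -0.38. Their mean signals were 3.79 to 3.93 in the mutant and 3.85 to 4.28 in wild type, below the array medians of 5.41 to 5.52. Signal over background was not assessed, so their small differences say little. The astacin-like protease gene nas-12 differed by -0.05 and C24F3.2 by 0.06. The farthest genes beyond tkt-1 were F01G10.10, at -0.29, and the Smad gene daf-14, at -0.01. F01G10.10 was dim as well, with means of 4.58 in the mutant and 4.87 in wild type. None of the 10 neighbours passed in limma, and 0 had an unadjusted p under 0.05, against 6.97% of all probe sets. The fit with array weights called 3 of the 10, near its 27.9% of all probe sets. Those on either side of ech-9 carried differences of both signs, and the largest in size was that of F01G10.6 (limma adjusted p = 0.794).

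**Figure D4:**
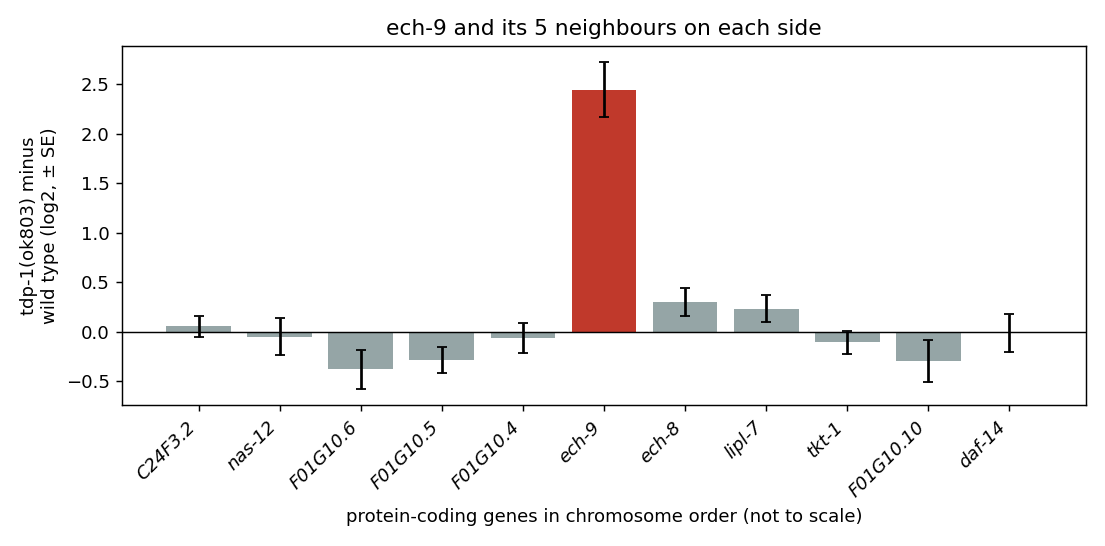
Difference, tdp-1(ok803) minus wild type on the log2 scale with SE, for ech-9 in red and its 5 protein-coding neighbours on each side in grey, in chromosome order and not to scale. The ech-9 bar reaches 2.44, and the neighbours lie between -0.38 and 0.30.

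Of the 987 other single-symbol probe sets whose SD over the arrays was at least 0.5, those most like ech-9 by Pearson r over the 6 arrays were T16H12.2 (r = 0.992), C05D9.9 (r = 0.984), F47D12.9 (r = 0.98), T13F3.6 (r = 0.977) and clec-70 (r = 0.97), a C-type lectin gene. These values describe a ranking over 6 arrays of 2 genotypes, and any gene that separates the genotypes will score highly. In T16H12.2 the signal was 5.79, 6.09 and 6.38 in mutant worms and 4.63, 4.75 and 4.84 in wild-type worms. Within each genotype its arrays ranked in the same order as for ech-9. The differences were 1.35 for T16H12.2, 0.96 for C05D9.9, 0.99 for F47D12.9, 0.86 for T13F3.6 and 1.70 for clec-70, all smaller than that of ech-9. None of the 5 passed (limma adjusted p = 0.0603 to 0.218). The genotypes did not overlap in any of them, where 6.8% of all probe sets tested had the mutant wholly above. As the 5 were picked by likeness to ech-9, that separation is not a result about them.

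Among 94 measured genes in 9 lists of related pathways, 0 passed in limma in either direction. The fit with array weights called 32 of them, 34.0%, against 27.9% of all probe sets. At an unadjusted limma p under 0.05 there were 2 higher and 5 lower in the mutant, 7.45% of the 94, near the 6.97% of all probe sets. The genotypes did not overlap in 2 genes with the mutant above and 5 with it below. That is also 7.45% of the 94, under the 11.6% of all probe sets. Differences were positive for 45 and negative for 49, with a median of -0.03, against 0.013 over 17118 genes. The enoyl-CoA hydratase family held no other gene with a difference near that of ech-9. Its 9 other measured genes, ech-6 included, had a median of 0.06 and a range of -0.34 to 0.37. Of the 8 besides ech-6, 5 were positive, and with the 3' minus 5' covariate all 8, with a median of 0.16. Without the share over all probe sets, that count is not read as a trait of the family. The highest, ech-7, gave 9.97, 10.07 and 9.88 in mutant worms and 9.52, 9.50 and 9.77 in wild-type worms, without overlap between the genotypes and without passing (limma adjusted p = 0.576).

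Other peroxisomal genes were split. Of 6 measured genes of peroxisomal oxidation, 3 were positive and 3 negative, with a median of 0.0093. The acyl-CoA oxidase gene acox-1.2, whose product helps set ascaroside chain length, gave 7.23, 7.48 and 7.81 in mutant worms and 8.33, 8.02 and 8.22 in wild-type worms. All of its mutant values were below all wild-type values, yet the difference of -0.68 ± 0.17 (SE) did not pass (limma adjusted p = 0.39). Its relative acox-1.5 differed the other way, by 0.58 ± 0.28, with overlapping values (limma adjusted p = 0.771). Genes of peroxisome biogenesis, the peroxins, and of the peroxisomal ABC transporters had a median of 0.04 over 15 genes, 9 positive and 6 negative. The transporter gene pmp-1 gave 5.80, 6.12 and 5.99 in mutant worms and 5.36, 5.09 and 5.73 in wild type, a difference of 0.58 ± 0.18 without overlap (limma adjusted p = 0.537), and the peroxin gene prx-19 differed by -0.48 ± 0.30 (limma adjusted p = 0.843).

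The remaining genes of the propionate shunt and its nuclear receptors had a median of -0.21 over 6 genes, 5 of them negative. The dehydrogenase gene alh-8, for the last step of the shunt, differed by -0.41 ± 0.21 (SE, limma adjusted p = 0.785), and the hydrolase gene hach-1 by -0.34 ± 0.32 (limma adjusted p = 0.89). The median slope of these 6 genes on the 3' minus 5' gap was -0.56. With the gap as a covariate 5 of the 6 were positive and the median was 0.12, with hach-1 at 0.06 and alh-8 at -0.21. With single arrays left out the median ran from -0.49 to 0.05, so the list had no settled direction. The vitamin B12 dependent route and the methionine cycle had a median of -0.12 over 9 genes, 3 positive and 6 negative, and with the covariate a median of 0.05 with 5 positive. There the propionyl-CoA carboxylase subunit gene pccb-1 differed by -0.37 ± 0.16 (limma adjusted p = 0.727) and the cobalamin-processing gene cblc-1 by 0.36 ± 0.17 (limma adjusted p = 0.76). Neither the shunt nor the B12 route held a gene that passed.

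The 11 other acyl-CoA dehydrogenase genes had a median of -0.11, with 4 positive and 7 negative, and ran from -0.26 (acdh-7, limma adjusted p = 0.851) to 0.28 (acdh-13). In this family acdh-8 differed by -0.24 ± 0.15 (SE, limma adjusted p = 0.842), and with the covariate the list median was 0.04. Genes of mitochondrial fatty acid entry, the carnitine palmitoyltransferases, the synthetase gene acs-2 and the carnitine carrier gene dif-1, with the thiolases, had the lowest list median, -0.29 over 10 genes, of which 8 were negative. The genes cpt-1, cpt-5 and cpt-6 had mutant values wholly below the wild-type ones and differed by -0.34, -0.63 and -0.32, where 4.84% of all probe sets tested had the mutant wholly below. None of these passed (limma adjusted p = 0.713, 0.702 and 0.617). For cpt-5, wild-type replicate 3, at 7.08, stood well above the other wild-type arrays, at 6.08 and 6.08. The list median was -0.13 with the covariate, again with 8 of 10 negative.

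The acyl-CoA synthetase genes besides acs-7 and acs-2 had a median of -0.08 over 18 genes, 8 positive and 10 negative. In this family acs-20, an orthologue of the fatty acid transport proteins, had the largest difference in size of all 94 genes. It gave 7.63, 7.23 and 7.51 in mutant worms and 8.58, 8.08 and 8.55 in wild-type worms. All 3 mutant values lay below the wild-type ones, and the difference of -0.95 ± 0.18 (SE) did not pass (limma adjusted p = 0.218). Without wild-type replicate 2 it was -1.11 and passed (limma adjusted p = 0.041). That fit called 97 of all probe sets, against 13 in the main fit, and 1 of the 94 genes. Next by p was acs-1, at 0.38 ± 0.19 with overlapping values (limma adjusted p = 0.774). The regulators of fatty acid oxidation, among them the nuclear receptor gene nhr-49 (0.09) and the coactivator gene mdt-15 (0.07), had 10 of 11 genes positive and a median of 0.09, where 53.0% of all genes were positive. With the covariate 6 of the 11 were positive and the median was 0.014, nhr-49 then standing at -0.05 and mdt-15 at -0.08. The largest was nhr-80, at 0.27 ± 0.17 (limma adjusted p = 0.845), followed by the lipid regulator gene sbp-1, at 0.20 ± 0.16 (limma adjusted p = 0.876).

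**Figure D5:**
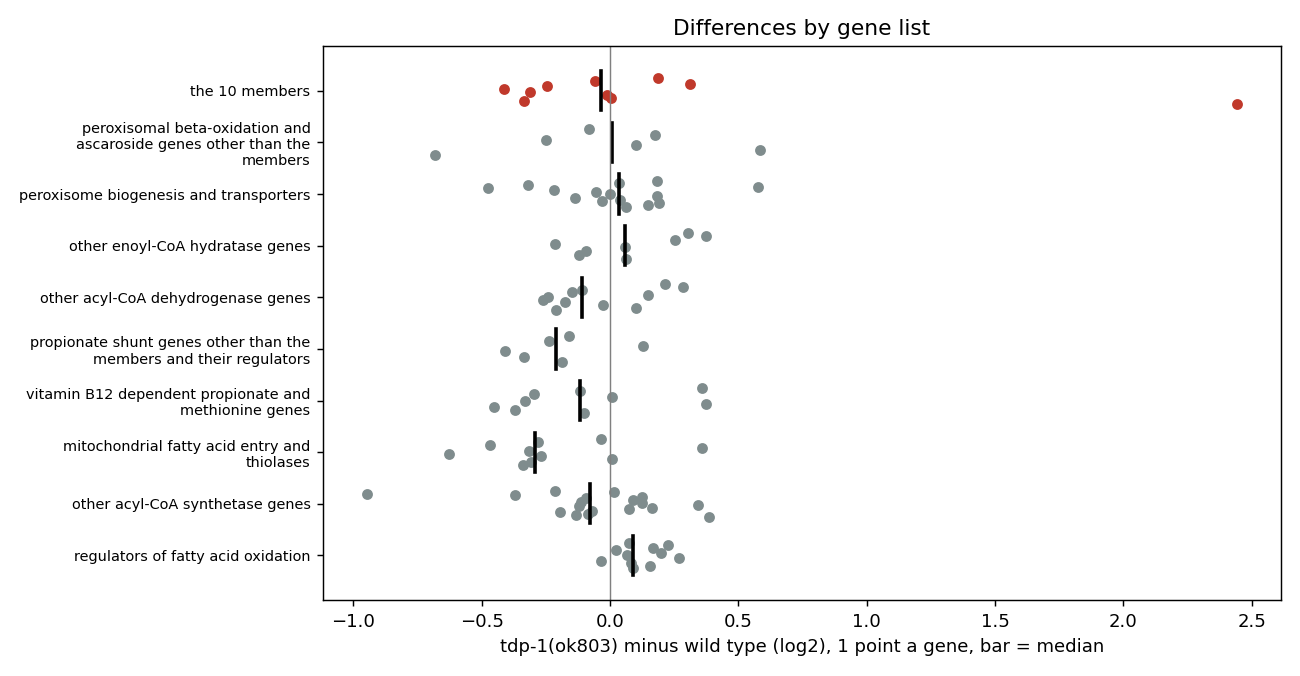
Difference, tdp-1(ok803) minus wild type on the log2 scale, for the 10 genes at the top in red (the brighter probe set of each) and for 94 genes of 9 related lists in grey. Each point is a gene and each black bar a list median. The ech-9 point lies at 2.44, and the 94 grey points lie between -0.95 and 0.58.

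Markers of the intestine, where much of the worm's fat is stored and oxidised, were 1 positive and 6 negative of 7, but 6 positive and 1 negative with the 3' minus 5' covariate. Their mean level on each array was 8.37 to 8.62 in the mutant and 8.29 to 8.71 in wild type. For hypodermal markers the mean level was 7.40 to 7.75 in the mutant and 7.43 to 8.15 in wild type, with 2 of 5 positive. Yolk and oocyte markers lay at 11.90 to 12.63 in the mutant and 12.17 to 12.53 in wild type, with 3 of 7 positive. Sperm, muscle and neuron markers also overlapped between genotypes in mean level, at 5.79 to 5.93, 9.64 to 9.91 and 7.25 to 7.42 in the mutant, against 5.73 to 6.21, 9.45 to 10.40 and 7.25 to 7.71 in wild type. Of these, 1 of 5 sperm, 1 of 4 muscle and 2 of 5 neuron markers were positive. None of the 33 markers passed in limma. The fit with array weights called 14 of the 33, where it called 27.9% of all probe sets. An unadjusted p under 0.05 was found for 3, or 9.09% against 6.97% of all probe sets: the collagen gene rol-6 and the synaptic gene rab-3 (-0.71), lower in the mutant, and the hypodermal factor gene elt-3 (0.62), higher. Other neuron markers went the other way from rab-3, snb-1 at 0.30 and unc-64 at 0.24. The part of tissue or stage make-up in the difference of ech-9 was not tested.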

How the data were processed

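RNA from mixed-stage worms, 3 wild-type and 3 tdp-1(ok803) samples grouped by their labelled genotype, was hybridised, 1 sample an array, to Affymetrix C. elegans arrays after biotin labelling, per the labels' protocols. The deposited values are log2 signals, 1 per probe set and array. The submitters' processing notes name RMA and Partek, without versions or settings. The log2 scale was read from the values. The number of arrays limits the precision.

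After 77 control probe sets were set aside, 22548 were tested with limma 3.58.1 in R 4.3.3 (a moderated linear model on genotype alone, two-sided, Benjamini-Hochberg over all probe sets, threshold 0.05), and checked on simulated data. Gene names came from the platform annotation of 20766 single-symbol probe sets, with symbols brought up to date by matching gene IDs to WBcel235 genes. 65 of them found no match. For lists the brightest probe set stood for a gene. Of 99 listed pathway genes, 5 were not measured. The named genes are all 10 members, the 2 smallest p of each list, 5 neighbours on each side of ech-9 and the 5 most similar profiles. acdh-13, cpt-1, nhr-49, mdt-15, rol-6, rab-3, elt-3, snb-1 and unc-64 were added after their values were seen. Members and lists were chosen with earlier results of these data known. Alternatives were other moderation, normalization, filters, array weights, a replicate block, the 3' minus 5' covariate and leaving out each array. The 2 sets of 3 arrays were chosen after seeing the data. Same-numbered arrays deviated over all probe sets with correlations of 0.05, -0.61 and -0.46. Mutant replicate 3 and wild-type replicate 2, both with a large 3' minus 5' gap, reached 0.60. Deviations that follow the arrays in this way cannot tell whether same-numbered samples were prepared together. The main fit did not treat the arrays as paired. No sequences are printed.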

Additional observations from a re-analysis of the deposited data

How the results depend on the processing

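The difference of ech-9 ran from 2.15 to 2.64 over the 16 alternatives. Every mutant value of ech-9 lay above every wild-type value, so leaving out arrays could not turn its sign. Its call did not hold in all of them. It was lost in the unmoderated model (2.44, adjusted p = 0.705), after quantile normalization (2.49, 0.0754), with equal array medians (2.46, 0.0713), and once the 3' minus 5' gap was a covariate (2.37, 0.0509). The sets of 3 arrays gave 2.19 (smaller gap, 1 mutant) and 2.61 (larger gap, 1 wild type) uncalled, but with an arm of 1 array they say little about the call. It was also lost in 4 of 6 fits with an array left out (2.15 to 2.64), those without wild-type replicate 1 or any 1 mutant replicate. The count of changed probe sets, 13, was 0 in the unmoderated model, 7 with equal medians, 5 with the replicate block, 25 with the covariate, 6 at an adjusted p under 0.01, and 2 and 1 in the sets of small and large gap. With an array left out it ran from 4 to 97 and was 97 without wild-type replicate 2. Array weights gave 6291, with weights of 7.91 for wild-type replicate 1 and 4.16 for mutant replicate 1 and under 0.6 for the others. The replicate block kept the ech-9 call (2.44, adjusted p = 0.0208). Of 176 alternative values for the other 11 probe sets, 175 stayed uncalled, and array weights called the brighter acdh-2 probe set (0.72, adjusted p = 0.0253). In 8 of the 11 the sign turned in at least 1 alternative. Of 135 alternative list medians, 119 moved by less than the SD between replicates. With the covariate the acyl-CoA dehydrogenases moved to 0.044, the B12 genes to 0.048, fatty acid entry to -0.13 and the synthetases to -0.017. In the arrays of large gap peroxisomal oxidation moved to 0.29, enoyl-CoA hydratases to 0.29, dehydrogenases to 0.067, synthetases to 0.025 and regulators to -0.034. Array weights moved the B12 genes to -0.34 and quantile normalization the synthetases to -0.0060. With an array left out the medians ran from -0.18 to 0.0034 for dehydrogenases, -0.26 to -0.017 for B12 genes and -0.044 to 0.0080 for synthetases. Array weights called 32 of the 94 pathway genes (34.0%, against 27.9% of all probe sets), and every other fit 0 except that without wild-type replicate 2, which called acs-20 (-1.11). The causes were not tested. Signal over background was not assessed.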
